A study of Mus musculus with 18 samples.

Results

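The 5 genes described here encode the interferon-inducible parts of the proteasome in mouse cells. They are Psmb8, Psmb9 and Psmb10, the inducible catalytic subunits, and Psme1 and Psme2, the subunits of the PA28 activator. They were chosen by symbol, and all 5 had a row among the 23453 genes of the count table. The study measured RNA by sequencing in B16F10 cells, a melanoma line from C57BL/6J mice, that carried a lentiviral short hairpin RNA against Hgs (shHrs) or a scrambled hairpin (shCTL). Hgs encodes Hrs, a subunit of the ESCRT-0 complex that sorts ubiquitinated membrane proteins at endosomes. The libraries formed 6 groups: shHrs and shCTL cultures of batch 1, shHrs and shCTL cultures of batch 2, with 2 libraries each, and shHrs and shCTL tumours, with 5 libraries each. All groups carried a hairpin vector, and infected cells, not said to be a clone, were selected with puromycin or blasticidin for 5 days. The labels do not say which drug each culture received, and no uninfected cells are among the samples. Tumours grew in immunocompetent wild-type female C57BL/6 mice aged 6 to 8 weeks, so the hairpin was in the injected melanoma cells while leukocytes, vessels and other host cells carried none. The labels call the libraries biological repeats and do not state if cultures were independent, so p-values reflect the spread among these libraries alone, which may be technical in part.

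The proteasome is the protease that cuts ubiquitinated proteins into peptides, some of which are carried into the endoplasmic reticulum and loaded onto MHC class I. Most cells use the constitutive catalytic subunits encoded by Psmb5, Psmb6 and Psmb7. Interferon gamma, and type I interferon in many cells, raises Psmb8, Psmb9 and Psmb10, which take the place of Psmb5, Psmb6 and Psmb7 in newly assembled particles, called immunoproteasomes. Leukocytes express the inducible subunits without added interferon. PA28, a ring of Psme1 and Psme2 proteins, caps the core particle and opens its gate.

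The genes lie in 3 places of the genome, on mouse build GRCm38 with GENCODE M21 annotation. Psmb9 (chr17:34181987-34187764, minus strand) and Psmb8 (chr17:34197721-34201454, plus strand) flank Tap1, which encodes a chain of the peptide transporter, within the MHC class II region. The annotated ends of Psmb9 and Tap1 overlap by 212 bases on opposite strands, the gap between Tap1 and Psmb8 is 495 bases, and that between Psmb8 and Tap2 is 2072 bases. Psme1 (chr14:55578123-55581529, plus strand) and Psme2 (chr14:55587441-55591113, minus strand) lie 5911 bases apart. Psmb10 (chr8:105935735-105938444, minus strand) lies apart from the others. The overlap with Tap1 covers 5.79% of the exon bases of Psmb9, and an antisense gene, Gm20496, overlaps 14.7% of those of Psmb8. The strand setting of the counting is not given in the sources used here. Reads from the shared bases therefore cannot be told apart. Psme2 has a retrocopy, Psme2b, whose transcript matches 99.4% of 794 aligned bases, and Psme2b has no row in the table, so values of Psme2 are uncertain to the extent that reads fit both.

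The promoters are shown because the members moved together across tumours. RefSeq start regions (GRCm38.p6, 250 bases before to 50 after the start) were found for 5 of 5 members and searched on both strands for an interferon-stimulated response element (ISRE), spelled as GAAA, any 2 bases and GAAA, and for a gamma-activated site (GAS), spelled as TTC, any 3 bases and GAA. For Psmb8, Psmb9 and Psme1 the RefSeq start lies inside the GENCODE gene bounds given above. Their regions (chr17:34197945-34198244, chr17:34187281-34187580 and chr14:55578244-55578543) lie wholly within those bounds, so the outer ends of these genes were not searched. Of 32851 start regions of mouse genes, 3.44% held the first pattern and 8.3% the second. Among the members, the region of Psme1 held the first, read on the opposite strand at bases 10 to 19 after the start. The region of Psmb8 held the second at bases -97 to -89, and those of Psmb9, Psmb10 and Psme2 held neither, as did those of Psmb5, Psmb6 and Tap1. No start region was available for Psmb7. Only these exact spellings were searched, so other forms of the elements, or elements outside the regions, would be missed. The 140 bases from 110 before to 30 after the start follow, with the match in capitals. Psmb9 is given beside the other genes because its start lies back to back with that of Tap1.
Psmb8, chr17:34198085-34198224, plus strand: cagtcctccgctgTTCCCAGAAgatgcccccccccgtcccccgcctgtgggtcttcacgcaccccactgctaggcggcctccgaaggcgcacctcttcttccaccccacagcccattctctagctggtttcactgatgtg
Psmb9, chr17:34187301-34187440, minus strand: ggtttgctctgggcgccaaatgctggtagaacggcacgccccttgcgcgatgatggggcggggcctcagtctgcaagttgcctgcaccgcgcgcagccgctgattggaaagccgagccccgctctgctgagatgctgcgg
Psme1, chr14:55578384-55578523, plus strand: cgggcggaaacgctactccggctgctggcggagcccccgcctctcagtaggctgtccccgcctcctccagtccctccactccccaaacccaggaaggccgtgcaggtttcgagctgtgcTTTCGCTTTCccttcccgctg

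Library totals ran from 18.5 to 27.7 M reads counted in shHrs and from 17.6 to 25.3 M in shCTL libraries. Levels are given as CPM, the counts of a gene over its library total on the usual per-M scale, with library sizes scaled together for all 18 libraries. Hgs was at 16.1 to 29.2 CPM in shHrs tumours and 95.8 to 112 CPM in shCTL tumours, and at 30.4 to 44.5 CPM in shHrs cultures and 95.01 to 113 CPM in shCTL cultures. It was thus lower in every shHrs library. All 7 melanocyte markers, among them Mlana, Tyr and Dct, were detected in every library.

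The genes differed in where they were detected at all. Psmb8 had 1 and 11 counts in the shHrs cultures of batch 2 and 0 counts in the other 6 cultures. Psmb9 had 5 and 5 counts in shHrs and 4 and 2 counts in shCTL cultures of batch 1, and 6 and 5 counts in shHrs and 1 and 3 counts in shCTL cultures of batch 2. Cultured B16F10 cells thus held next to no RNA of these subunits with either hairpin, while Psmb10, Psme1 and Psme2 had at least 140 counts in every library. In tumours all 5 genes were measured, with the lowest value of Psmb8 at 25 counts and that of Psmb9 at 30 counts, both in shCTL tumour 3. Tumours also hold host cells, and levels in tumours were not tested against those in cultures.

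**Figure D1:**
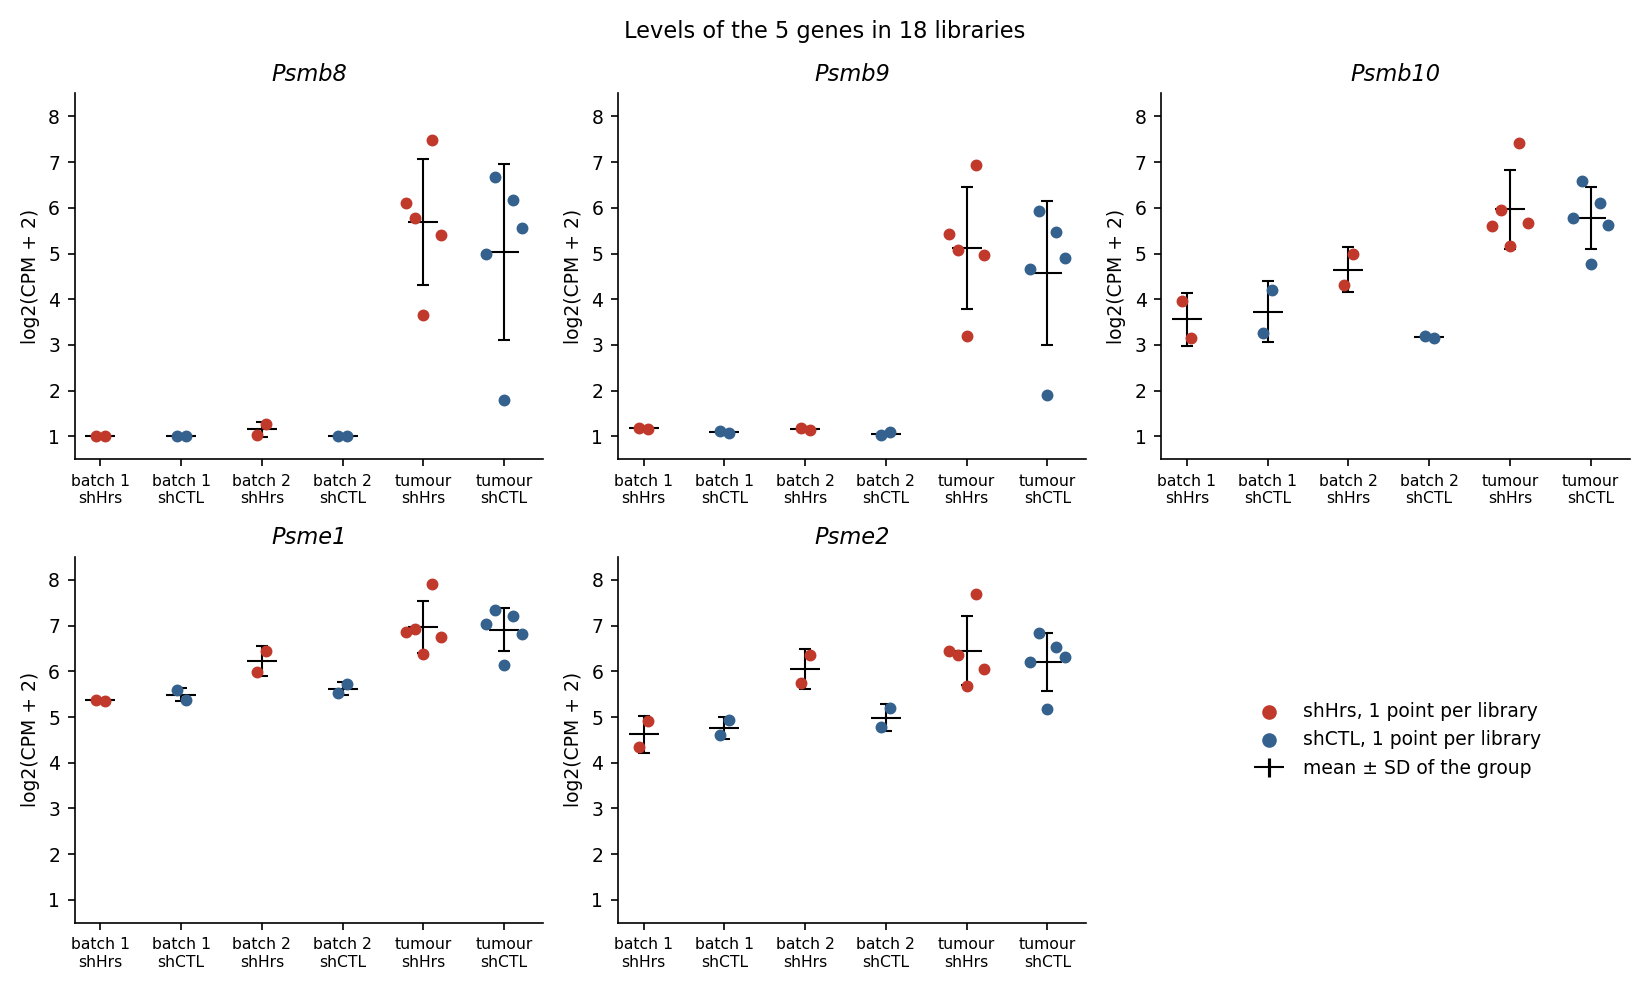
Levels of the 5 genes in each library, as log2(CPM + 2) on the vertical axis, by group on the horizontal axis, with shHrs in red and shCTL in blue and the mean ± SD of each group in black. Psmb8 and Psmb9 lie near 1, the value of 0 CPM, in all 8 cultures and spread widely in both tumour groups, where red and blue points overlap for every gene.

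Per kilobase of transcript, the order of the mean levels was the same in both tumour groups. In shHrs tumours Psme1 was at 119 ± 54.7 CPM per kb, Psme2 at 100.3 ± 63.9, Psmb10 at 54.9 ± 42.5, Psmb8 at 42.6 ± 38.9 and Psmb9 at 34.1 ± 32.4 CPM per kb (SD, n = 5). In shCTL tumours Psme1 was at 110.5 ± 32.1, Psme2 at 80.3 ± 30.1, Psmb10 at 43.8 ± 19.5, Psmb8 at 30.3 ± 23.2 and Psmb9 at 22.8 ± 15.8 CPM per kb (SD, n = 5). The mean ± SD ranges of neighbours in this order overlapped in both groups, but the genes were measured in the same tumours. Within every tumour Psme1 lay above Psme2, and Psme2 above Psmb10. Psmb10 was below Psmb8 only in shHrs tumour 1 (35.6 against 41.0 CPM per kb). Psmb8 was below Psmb9 only in shCTL tumour 3 (0.900 against 1.30 CPM per kb). In cultures the members above 1 CPM per kb were Psme1 and Psme2, from 18.9 to 83.1 CPM per kb in single libraries, and Psmb10, from 5.22 to 22.8 CPM per kb.

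None of the 5 genes differed between shHrs and shCTL tumours beyond the spread between tumours. All 5 passed the filter on low counts and none passed the threshold of 0.05 on the adjusted p, where 72 of 13215 genes, 0.545%, did. Psmb8 was at 66.8, 52.6, 10.6, 176 and 40.5 CPM in shHrs tumours 1 to 5 and at 29.6, 100.02, 1.46, 69.97 and 45.5 CPM in shCTL tumours 1 to 5. Its log2 fold change was 0.50 (SE 0.81), with an adjusted p of 0.832 by edgeR's quasi-likelihood test. The groups overlapped from 10.6 to 100.02 CPM, and the highest value was in a shHrs tumour and the lowest in a shCTL tumour.

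Psmb9 was at 41.0, 31.6, 7.18, 121 and 29.2 CPM in shHrs tumours and at 23.1, 58.7, 1.76, 42.5 and 27.7 CPM in shCTL tumours, with a log2 fold change of 0.59 (SE 0.75, edgeR adjusted p 0.785). Psmb10 was at 46.7, 59.7, 34.1, 170.2 and 49.1 CPM in shHrs tumours and at 53.0, 94.2, 25.2, 67.0 and 47.4 CPM in shCTL tumours, with a log2 fold change of 0.33 (SE 0.45, edgeR adjusted p 0.797). In both genes shHrs tumour 4 stood above the rest and shCTL tumour 3 below it. The activator subunits varied less. Psme1 was at 115, 119, 81.7, 238 and 106 CPM in shHrs tumours and at 129.6, 159, 68.4, 147 and 110.2 CPM in shCTL tumours, with a log2 fold change of 0.10 (SE 0.29, edgeR adjusted p 0.914). Psme2 was at 85.4, 80.2, 49.5, 203 and 63.8 CPM in shHrs tumours and at 71.5, 113, 34.0, 89.8 and 77.5 CPM in shCTL tumours, with a log2 fold change of 0.32 (SE 0.39, edgeR adjusted p 0.769). The shHrs and shCTL values of all 5 genes overlapped, as they did for most genes: the groups were apart with shHrs higher for 2.00% and with shHrs lower for 2.28% of the genes tested. The range of 2 SE either side of the estimate ran from -1.11 to 2.11 for Psmb8 and from -0.48 to 0.69 for Psme1, so sizeable differences in either direction remain within the error for Psmb8.

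These positive fold changes rested on 1 library. Without shHrs tumour 4 the log2 fold changes were -0.22 for Psmb8, -0.18 for Psmb9, -0.29 for Psmb10, -0.23 for Psme1 and -0.16 for Psme2, with edgeR adjusted p from 0.624 to 0.933. Psme1 also turned to -0.05 without shCTL tumour 3. The median of the 5 log2 fold changes was 0.33, beside 0.01 over all 13215 genes tested, of which 51.5% were positive.

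The spread between tumours was shared by the 5 genes. For each of them shHrs tumour 4 was highest, shCTL tumour 2 the second highest, shCTL tumour 4 the third, shHrs tumour 3 the ninth and shCTL tumour 3 the lowest of 10. The highest tumour exceeded the lowest 120-fold for Psmb8, 69.0-fold for Psmb9, 6.76-fold for Psmb10, 5.98-fold for Psme2 and 3.48-fold for Psme1. The constitutive counterparts varied far less, by 1.46-fold for Psmb5, 1.505-fold for Psmb6 and 1.23-fold for Psmb7, and shCTL tumour 3 ranked the fifth, the third and the second in them. These 3 constitutive subunits thus did not share the wide range of the members. As for the members, shHrs tumour 4 was still highest for Psmb5 (147.6 CPM) and Psmb6 (228.9 CPM), while shCTL tumour 1 was highest for Psmb7.

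Markers of host cells varied in the same tumours. The 4 pan-leukocyte markers (Ptprc, Cd53, Laptm5 and Coro1a) summed to 55.3, 52.2, 38.1, 179 and 34.7 CPM in shHrs tumours and to 21.9, 72.3, 9.37, 51.2 and 93.8 CPM in shCTL tumours. All 4 were above 0 in every tumour and higher in shHrs tumour 4 than in the other 9. The 12 T and NK cell markers summed to 2.54 to 38.3 CPM in shHrs and 0.293 to 10.6 CPM in shCTL tumours, with 7 of 12 at 0 in shCTL tumour 3. The 10 macrophage and monocyte markers summed to 216 to 998 CPM in shHrs and 39.0 to 592 CPM in shCTL tumours, and the 5 skeletal muscle markers to 15.6 to 637 CPM in shHrs and 4.98 to 157 CPM in shCTL tumours. In each of these lists shHrs tumour 4 was highest and shCTL tumour 3 lowest. The 6 dendritic cell markers summed to 7.18 to 23.5 CPM in shHrs and 4.63 to 12.9 CPM in shCTL tumours, the 4 B cell markers to 1.15 to 3.33 CPM in shHrs and 1.29 to 2.18 CPM in shCTL tumours, and the 4 endothelial markers to 74.5 to 123 CPM in shHrs and 69.2 to 116 CPM in shCTL tumours. The order was not the same throughout, since shCTL tumour 5 had the second highest pan-leukocyte sum and ranked only the sixth or the seventh in the 5 genes. In cultures the dendritic cell markers summed to 5.22 to 14.4 CPM and the skeletal muscle markers to 2.87 to 10.1 CPM. The macrophage and monocyte markers reached 35.0 CPM there. Low tumour sums of these lists therefore need not come from host cells. Zbtb46 of the dendritic cell list reached 14.4 CPM in cultures, and among tumours it was lowest in shHrs tumour 4. In bulk tissue, more cells of a type and more RNA per cell cannot be told apart, and the part of host cells in the levels was not tested. With the 2 tumours at the ends of the pan-leukocyte sum left out, a choice made after seeing the data, the log2 fold changes were -0.53 for Psmb8, -0.49 for Psmb9, -0.48 for Psmb10, -0.38 for Psme1 and -0.35 for Psme2 (edgeR adjusted p 0.246 to 0.673). Those 2 tumours also held the highest shHrs and the lowest shCTL value of each gene, so leaving them out had to lower every fold change.

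**Figure D2:**
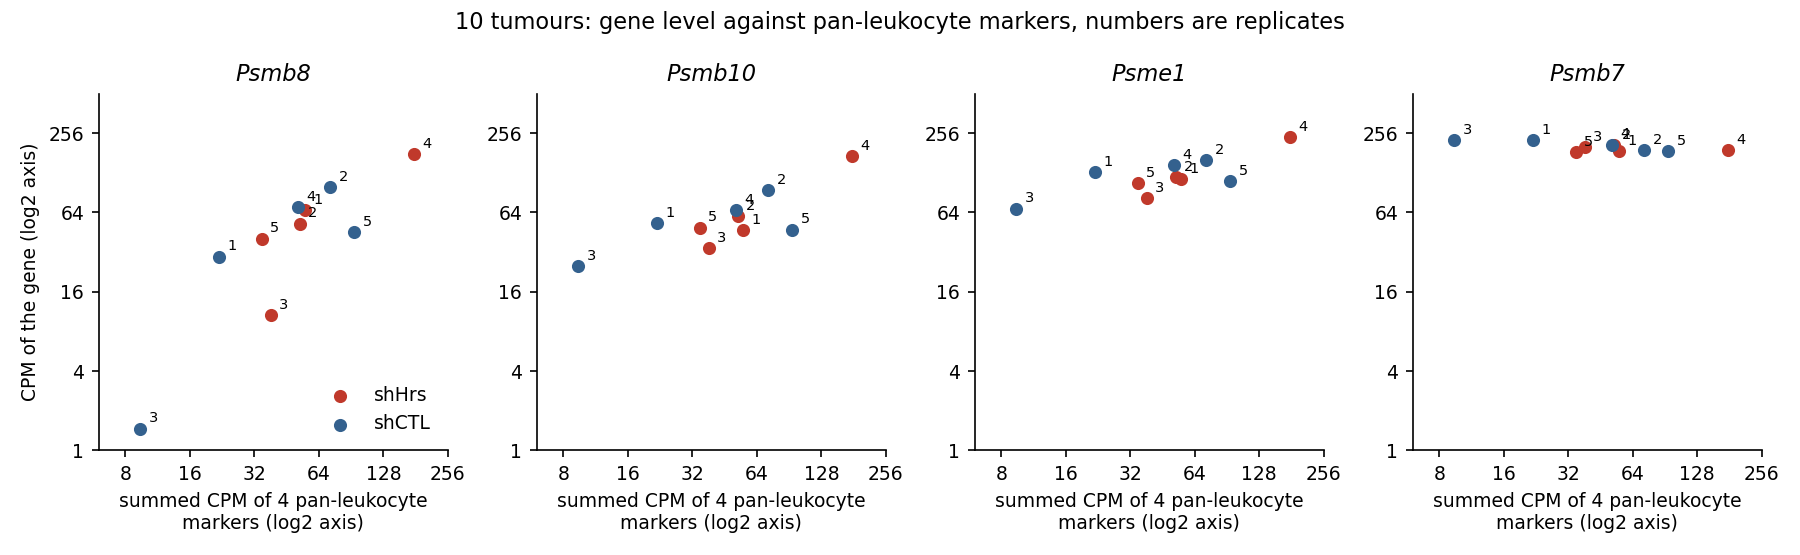
CPM of Psmb8, Psmb10, Psme1 and the constitutive subunit Psmb7 in the 10 tumours (vertical log2 axis) against the summed CPM of 4 pan-leukocyte markers (horizontal log2 axis), with shHrs in red and shCTL in blue and replicate numbers beside the points. Psmb8 spans 1.46 to 176 CPM between shCTL tumour 3 and shHrs tumour 4, the ends of the marker axis, while Psmb7 stays between 185 and 227 CPM.

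In cultures, 3 of 5 members (Psmb10, Psme1 and Psme2) passed the filter on low counts, and none of them passed the adjusted threshold, where 4.03% of 12897 genes did in batch 2 and 0% in batch 1. In batch 2 both shHrs cultures lay above both shCTL cultures for all 3 genes, as they did for 35.0% of all genes tested, so such a separation was common in this batch. In batch 1 the groups overlapped for Psmb10 and Psme2, and both shHrs cultures lay below both shCTL cultures for Psme1, as for 16.8% of all genes tested. The 4 pan-leukocyte markers summed to 3.45 and 4.24 CPM in shHrs and 1.91 and 1.29 CPM in shCTL cultures of batch 2, higher in shHrs like the 3 members, and to 1.56 and 0.392 CPM in shHrs and 2.83 and 1.88 CPM in shCTL cultures of batch 1. Over all 8 cultures Coro1a had 319 counts, Laptm5 78, Ptprc 4 and Cd53 0. The 7 melanocyte markers summed to 5219 and 4331 CPM in shHrs and 13849 and 11575 CPM in shCTL cultures of batch 2, so both shHrs cultures were lower than every other library, and to 19230 and 8128 CPM in shHrs and 15236 and 9501 CPM in shCTL cultures of batch 1. The part of either marker list in the members' values was not tested. Psmb10 was at 17.8 and 29.8 CPM in shHrs and 7.20 and 6.84 CPM in shCTL cultures of batch 2, and at 13.7 and 6.86 CPM in shHrs and 7.57 and 16.4 CPM in shCTL cultures of batch 1. The groups were apart in batch 2 and overlapped in batch 1, where each group held a high and a low library.

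For Psmb10 in batch 2 the log2 fold change was 1.71 (SE 0.49, edgeR adjusted p 0.0777), and in batch 1 it was -0.22 (SE 0.48, edgeR adjusted p 0.893). Psme2 was at 51.3 and 79.9 CPM in shHrs and 25.3 and 34.5 CPM in shCTL cultures of batch 2, with a log2 fold change of 1.08 (SE 0.32, edgeR adjusted p 0.0810). In batch 1 it was at 18.2 and 27.98 CPM in shHrs and 22.2 and 28.6 CPM in shCTL cultures, with a log2 fold change of -0.15 (SE 0.32, edgeR adjusted p 0.892). Its partner Psme1 showed a smaller difference in batch 2. Psme1 was at 61.5 and 85.4 CPM in shHrs and 44.0 and 50.7 CPM in shCTL cultures of batch 2, with a log2 fold change of 0.58 (SE 0.23, edgeR adjusted p 0.149), and at 39.6 and 38.6 CPM in shHrs and 46.1 and 39.7 CPM in shCTL cultures of batch 1, with -0.14 (SE 0.23, edgeR adjusted p 0.862).

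In batch 2, 27.9% of the genes tested had an unadjusted p under 0.05 by edgeR's test, as Psmb10, Psme1 and Psme2 did. In batch 1, where 0 genes passed by edgeR, 1210 genes or 9.38% had an unadjusted p under 0.05, with 0 members among them, and DESeq2 called 220 genes, also with 0 members.

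Whether members passed in batch 2 depended on the setting. DESeq2 gave adjusted p of 0.00747 for Psmb10 and 0.0222 for Psme2, and edgeR without the filter on low counts gave 0.00182 and 0.0128. With the 4 libraries of batch 2 fitted alone, the edgeR adjusted p was 0.000247 for Psmb10, 0.00337 for Psme2 and 0.0486 for Psme1, in a fit that called 4303 genes. Leaving out either shHrs library of batch 1, a pair that differed more than any other replicates (chi-square per degree of freedom 220), gave adjusted p of 0.0148 and 0.0151 for Psmb10 and 0.0220 and 0.0235 for Psme2. Without any 1 of the 4 libraries of batch 2, 0 genes passed by edgeR's adjusted p. The log2 fold changes in batch 2 stayed positive in every alternative run, from 1.34 to 2.02 for Psmb10, 0.78 to 1.36 for Psme2 and 0.38 to 0.79 for Psme1.

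The 2 subunits below the filter gave no fitted value. Psmb8 summed to 12 counts in shHrs and 0 counts in shCTL cultures of batch 2, at least 3.86-fold higher when 3 counts over the group are taken as the floor, and 11 of the 12 counts came from replicate 2. In batch 1 it had 0 counts in both groups, which allows up to 0.0769 CPM in shHrs and 0.0688 CPM in shCTL cultures, by counting error alone. Psmb9 was 2.66-fold higher in shHrs than in shCTL cultures of batch 2 by summed counts (exact 95% interval 0.787 to 11.4) and 1.86-fold higher in batch 1 (0.614 to 6.24), and both intervals hold 1.

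**Figure D3:**
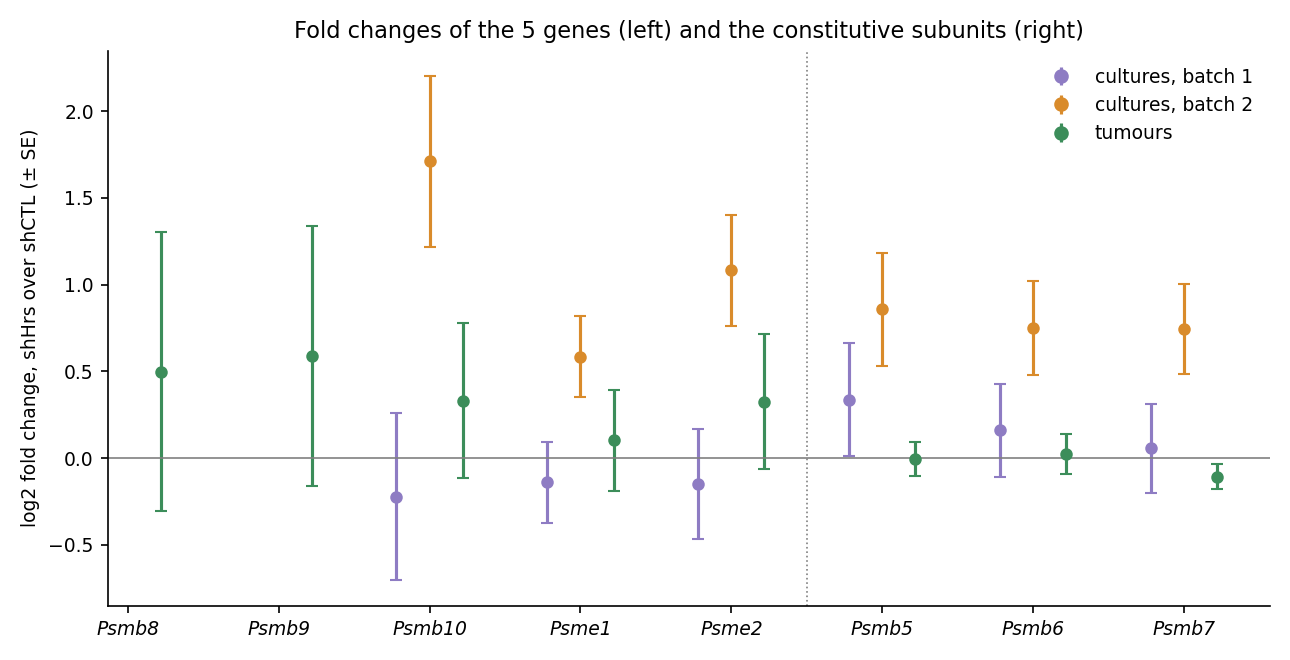
Log2 fold changes of shHrs over shCTL with their SE (vertical axis) for the 5 genes and, right of the dotted line, the constitutive subunits Psmb5, Psmb6 and Psmb7, in cultures of batch 1 (purple), cultures of batch 2 (orange) and tumours (green). Psmb8 and Psmb9 have values in tumours only, and the batch 2 values, from 0.58 to 1.71, lie above those of batch 1 for every gene shown.

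The effect in batch 2 minus that in batch 1 was 1.93 for Psmb10 (SE 0.69, edgeR adjusted p 0.176), 1.23 for Psme2 (SE 0.45, edgeR adjusted p 0.185) and 0.72 for Psme1 (SE 0.33, edgeR adjusted p 0.262) on the log2 scale. None of the 3 passed, where 0.155% of 12897 genes did, and Psmb10 and Psme2 had an unadjusted p under 0.05 by edgeR's test, as did 20.3% of all genes tested. Psmb10 passed without the filter, with an adjusted p of 0.0187, and without shHrs replicate 1 of batch 1, with 0.0258. Over both batches, with batch as a term, the log2 fold changes were 0.75 for Psmb10 (SE 0.49), 0.47 for Psme2 (SE 0.31) and 0.22 for Psme1 (SE 0.21), with edgeR adjusted p from 0.508 to 0.641. In that fit 0 of 12617 genes passed, with 13.3% under an unadjusted p of 0.05, and DESeq2 called 301 genes with 0 members.

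The effect in tumours minus the mean effect in cultures was -0.45 for Psmb10 (SE 0.64), -0.15 for Psme1 (SE 0.38) and -0.18 for Psme2 (SE 0.52), with edgeR adjusted p from 0.766 to 0.919. Of 14458 genes 3.61% passed this test. None of the 3 passed, and no value is given for Psmb8 and Psmb9, which had 0 to 11 counts in each culture.

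The constitutive subunits did not pass in tumours or in either batch by the edgeR test used throughout. In batch 2 their log2 fold changes were 0.86 for Psmb5 (SE 0.33), 0.75 for Psmb6 (SE 0.27) and 0.74 for Psmb7 (SE 0.26), with edgeR adjusted p from 0.113 to 0.136. As with the members, other settings gave calls in batch 2: Psmb5 passed in 4 of 14 alternatives, Psmb6 in 1 and Psmb7 in 1, with the lowest adjusted p, 0.0120, 0.0196 and 0.0247, in the fit of that batch alone by edgeR. The value of Psme1, 0.58, was below theirs, and those of Psmb10 and Psme2 were above; these differences were not tested. In tumours the log2 fold change was -0.01 for Psmb5 (SE 0.10), 0.02 for Psmb6 (SE 0.11) and -0.11 for Psmb7 (SE 0.07), with edgeR adjusted p from 0.583 to 0.984.

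The balance within each catalytic pair was described as the inducible share, from CPM per kb. Psmb10 made up 6.78% and 7.03% of Psmb10 plus Psmb7 in shHrs and 3.77% and 3.57% in shCTL cultures of batch 2, and 5.57% and 2.94% in shHrs and 3.54% and 6.59% in shCTL cultures of batch 1. The share was higher in shHrs in batch 2 and overlapped between the groups in batch 1. Groups that did not overlap were common in batch 2. By CPM, both shHrs cultures lay above both shCTL cultures for 35.0% of genes tested there and below for 34.7%. In tumours it had a median of 19.1% in shHrs (13.1% to 44.2%) and 18.2% in shCTL (8.97% to 30.3%). Psmb8 made up a median of 20.2% of Psmb8 plus Psmb5 in shHrs tumours (4.58% to 39.8%) and 17.9% in shCTL tumours (0.676% to 32.3%), and at most 0.0793% in any culture. Psmb9 made up a median of 10.2% of Psmb9 plus Psmb6 in shHrs tumours (2.28% to 23.8%) and 8.91% in shCTL tumours (0.549% to 17.6%), and at most 0.106% in any culture. Host and melanoma cells are mixed in the tumour shares, and no test was run on the shares of cultures or tumours.

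**Figure D4:**
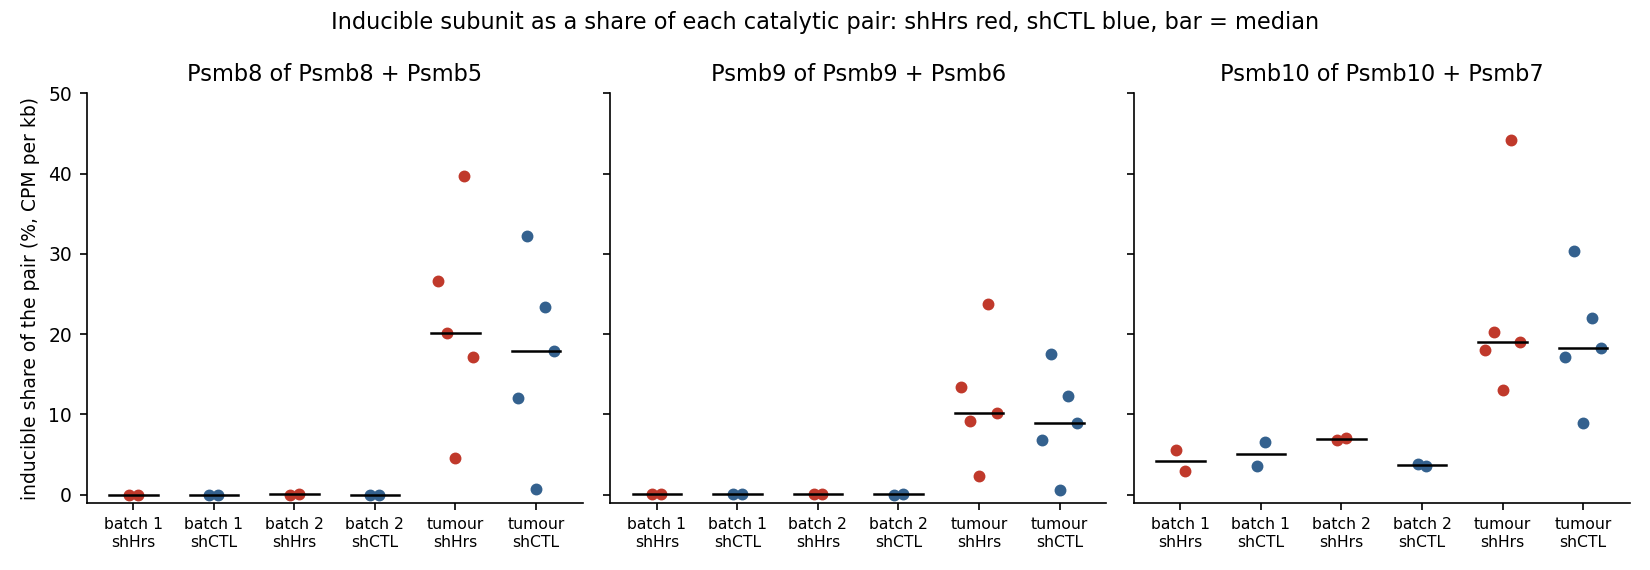
Share of the inducible subunit in each catalytic pair, in percent of the summed CPM per kb of both genes (vertical axis), by library and group, with shHrs in red, shCTL in blue and the group median as a bar. Psmb8 and Psmb9 are near 0% in all cultures, Psmb10 is at 2.94% to 7.03% there, and in tumours the shares reach 44.2%.

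Of the remaining activators, inhibitor and assembly factors, 8 of 9 could be tested and 0 passed in tumours or in either batch. Psme3, the subunit of the nuclear PA28 gamma ring, had a log2 fold change of 0.14 (SE 0.24) in batch 2 and -0.08 (SE 0.09) in tumours. Pomp, the chaperone that assembles new core particles, was at 0.88 (SE 0.34, edgeR adjusted p 0.140) in batch 2 and 0.07 (SE 0.12) in tumours. Psmf1, a proteasome inhibitor, was at 0.64 (SE 0.20, edgeR adjusted p 0.0884) in batch 2, and Psme4, another activator, at 0.37 (SE 0.21). Under other settings Pomp passed in batch 2 in 4 of 14 alternatives (lowest edgeR adjusted p 0.0134) and Psmf1 in 3 (lowest edgeR adjusted p 0.0252). Of the 29 other proteasome subunits, all of which were tested, 1 passed in batch 2, where 4.03% of all genes tested passed. Psmb3 rose there, with a log2 fold change of 1.04 (SE 0.22, edgeR adjusted p 0.0452). All 29 had positive values there, as did 47.3% of all genes tested, with a median of 0.89 beside -0.05 over all genes. In batch 1, 12 of 29 had positive values, beside 50.6% of all genes tested, with a median of -0.05. In tumours their median was 0.00 and 0 passed. The call of Psmb3, like those of Tapbp, Pdia3, Irf9 and Socs1 given next, was lost without any 1 of the 4 libraries of batch 2, with edgeR adjusted p of 0.117 to 0.324 over the 5 genes and 4 libraries, and Psmb3 also missed the threshold without either shCTL library of batch 1 (edgeR adjusted p 0.0540 and 0.0542).

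Class I peptide loading holds the neighbours of Psmb8 and Psmb9. Of its 11 genes, 10 had positive values in batch 2, with a median of 1.16. Over all genes tested there, 47.3% were positive and the median was -0.05. In batch 1, 7 of the 11 were positive, with a median of 0.10, beside 50.6% of all genes. By the adjusted p, 2 of the 11 rose in batch 2, where 4.03% of all genes tested passed. In batch 1 and in tumours 0 passed. Those that rose were Tapbp, the tapasin that bridges the transporter and class I, with 1.40 (SE 0.28, edgeR adjusted p 0.0382), and Pdia3, an oxidoreductase of the loading complex, with 1.28 (SE 0.27, edgeR adjusted p 0.0444). Tap1 was at 7.18 and 7.81 CPM in shHrs and 1.19 and 1.13 CPM in shCTL cultures of batch 2 (log2 fold change 2.64, SE 0.63, edgeR adjusted p 0.0553), so it was measured where both of its flanking genes were near 0. In batch 1 it was at 1.61 and 5.78 CPM in shHrs and 2.39 and 1.21 CPM in shCTL cultures, and the groups overlapped. B2m, the light chain of class I, was at 0.93 (SE 0.23, edgeR adjusted p 0.0598) in batch 2, and Tap2 at -0.23 (SE 0.54). Under other settings Tap1 passed in batch 2 in 6 of 14 alternatives (lowest edgeR adjusted p 2.67e-05) and B2m in 5 (lowest edgeR adjusted p 0.00458). In tumours Tap1 was at 0.40 (SE 0.59) and B2m at 0.50 (SE 0.46).

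Of 14 genes of interferon gamma signalling, 12 were tested in batch 2. Their values ran from -1.47 to 2.73 with a median of 0.29, and 8 were positive. Over all genes tested there, the median was -0.05 and 47.3% were positive. By the adjusted p, 2 of the 12 rose, where 4.03% of all genes tested passed. Irf9, a subunit of the factor that binds response elements after type I interferon, had a log2 fold change of 2.73 (SE 0.51, edgeR adjusted p 0.0329). Socs1, a feedback inhibitor, had 2.69 (SE 0.52, edgeR adjusted p 0.0343). Nlrc5, an activator of class I genes, was at 2.47 (SE 0.64, edgeR adjusted p 0.0654) and Irf1 at 0.52 (SE 0.39, edgeR adjusted p 0.413). In batch 1, 0 passed, with Irf1 at -0.92 (SE 0.39) and Nlrc5 at 1.80 (SE 0.62). Nlrc5 passed in batch 1 without shHrs replicate 1 of that batch (log2 fold change 2.31, edgeR adjusted p 0.0267), its batch 1 value ran from 0.95 to 2.72 with 1 library left out, and in batch 2 it passed in 5 of 14 alternatives (lowest edgeR adjusted p 9.84e-05). In tumours 0 of 13 passed, with Irf1 at 0.59 (SE 0.47) and Nlrc5 at 0.51 (SE 0.64). Ifng itself had 0 counts in all 8 cultures, 14 counts in shHrs tumour 4 and at most 4 counts in any other tumour. Of the 5 genes listed as regulators of proteasome gene expression, Nfe2l2, best known for the response to oxidative stress, fell in tumours, to 76.0 CPM in shHrs against 108.5 CPM in shCTL tumours on average (log2 fold change -0.52, SE 0.09, edgeR adjusted p 0.0259). Leaving out 1 tumour ended the call of Nfe2l2 for 7 of the 10 tumours, with edgeR adjusted p up to 0.0916 and log2 fold changes from -0.56 to -0.46. The knockdown effect in tumours minus the mean effect in cultures, a test that 3.61% of 14458 genes passed, was called negative for 2 further genes. Adrm1, a ubiquitin receptor of the regulatory particle, had a difference of effects of -0.75 (SE 0.19, edgeR adjusted p 0.0391). Vcp, the ATPase that unfolds ubiquitinated proteins, had -0.75 (SE 0.19, edgeR adjusted p 0.0448). Levels in tumours and cultures were not compared by this test. Both calls were lost in 14 of 23 alternatives, with adjusted p up to 0.112 for Adrm1 and 0.123 for Vcp.

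The genes most like the 5 members across the 10 tumours were sought by the mean absolute difference of centred log2 CPM from the members' mean. Among 9813 candidates these were H2-Q4, a class I gene, at 0.117, Sp110, an interferon-induced nuclear body gene, at 0.155, Irf8, an interferon regulatory factor of myeloid cells, at 0.178, Tapbp at 0.180 and Tap2 at 0.193 log2 units. The median candidate was at 0.68. The members themselves were at 0.238 for Psme2, 0.242 for Psmb10, 0.336 for Psmb9, 0.370 for Psme1 and 0.511 for Psmb8. Each member thus lay further from the members' mean than the genes named. H2-Q4 was at 111, 77.5, 36.3, 206 and 63.0 CPM in shHrs and at 70.4, 122, 18.5, 86.1 and 72.1 CPM in shCTL tumours, with the same tumours at the top and the bottom as the members. None of the 5 nearest genes passed the tumour test, and 4 of these 5 stayed nearest with a pseudocount of 0.5 in place of 2. All genes share libraries and depth, and the likeness carries no test. In the 8 cultures, centred within batch, the nearest of 9600 candidates were Stx4a at 0.03, Ppia at 0.03, Trmt12 at 0.04, Gtf2h5 at 0.05 and Gtf2b at 0.05 log2 units, beside a median of 0.31. Psmb8 and Psmb9, near 0 in every culture, are part of the members' mean there, and 1 of these 5 genes stayed nearest with the other pseudocount. The members were at 0.0783 for Psme1, 0.167 for Psmb8, 0.191 for Psme2, 0.193 for Psmb9 and 0.386 for Psmb10. The mean in cultures was thus followed closely by no member but Psme1, and Psmb10 lay beyond the median candidate.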

How the data were processed

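RNA was sequenced from 8 cultures and 10 tumours of B16F10 cells. The submitters' processing notes list STAR 2.4.0h2, DESeq and mm10, without their roles. What counted the reads, with which annotation and strand setting, is not given in the sources used here. The authors deposited 1 table of raw counts for 23453 gene symbols in 18 libraries, with no normalization, and 0 columns were left out. Libraries of a group differed by more than sampling noise (chi-square per degree of freedom 14.5 to 220), a spread that may be technical in part. Each library was treated as a replicate, though the labels do not state if cultures were independent.

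Genes were kept by filterByExpr (minimum count 10), scaled by TMM and tested in R 4.3.3 with edgeR 4.0.16 (glmQLFit, glmQLFTest), with two-sided p-values adjusted by Benjamini and Hochberg's method across every gene kept. Cultures were fitted with a mean per batch and treatment, or with batch as a term, and tumours on their own. The effect in tumours minus the mean effect in cultures was fitted in all 18 libraries. SE is the fold change divided by the root of F. CPM per kb uses the longest protein-coding transcript of GENCODE M21. Intervals of summed counts (95%, exact conditional binomial) and the floor of 3 counts cover counting error only. The scripts were tested on simulated data. DESeq2 1.42.0, limma 3.58.1 voom, other scaling, no filter, left-out libraries and the replicate number as a block were alternatives.

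Genes named were Hgs, the 5 members, the constitutive subunits, 13 genes of the same pathways (1 of them is not reported here), up to 4 further genes past the threshold per list, and the 5 most like the members in tumours and in cultures (minimum mean log2 CPM of 3). The members and lists were chosen with earlier results of these data known.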

Additional observations from a re-analysis of the deposited data

Results flagged for a closer look

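In shHrs tumours the highest library, replicate 4, stood far from the other 4 for 3 genes, with a gap to its nearest neighbour above 0.71 of the whole range. It was at 170.2 CPM for Psmb10, 237.7 CPM for Psme1 and 203.5 CPM for Psme2. Of 18 sets of 5 tumours looked at (9 genes in 2 groups), these 3 stood out. Chance alone marks about 1 in 20 sets where values are normally distributed. The rule was applied to CPM and not to log2 CPM, so that rate may not hold here. The 3 are in the same library and are not independent. In that library the 4 pan-leukocyte markers summed to 179 CPM, beside 34.7 to 55.3 CPM in the other shHrs tumours, and their part in the 3 values was not tested.

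The effect of the hairpin on Hgs itself differed between tumours and cultures, by -0.82 on the log2 scale (SE 0.21, edgeR adjusted p 0.0407), with lower Hgs in all 5 shHrs tumours and all 4 shHrs cultures. In 15 of 23 alternatives that difference no longer passed, with edgeR, DESeq2 or limma adjusted p from 0.00885 to 0.109 over the 23.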

How the results depend on the processing

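Among values of single genes under the alternatives, 752 of 911 kept their direction and their side of the threshold, 36 reversed, 48 passed where they had not and 75 no longer passed. Of 316 values of the members, 288 were kept, 15 reversed and 13 passed the threshold where they had not. No member passed in tumours, in batch 1, over both batches or in the difference of effects between tumours and cultures under any alternative run. The causes of the changes below were not tested.

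In tumours 72 genes passed, against 549 with DESeq2 and 29 in a fit of all 18 libraries. Leaving out 1 tumour gave 32 to 158, the lowest without shCTL 3 and the highest without shHrs 4. In batch 1, 0 passed, against 438 without the filter and 220 with DESeq2, and leaving out 1 library gave 0 to 1496, the highest without shHrs 1 of batch 1. In batch 2, 520 passed, against 2224 without the filter, 1988 with DESeq2 and 4303 with the batch fitted alone. Leaving out 1 library gave 0 to 2732: 0 without any 1 of the 4 libraries of batch 2, and 2705 and 2732 without shHrs 1 or 2 of batch 1. The members that passed there numbered 2 without the filter, 2 with DESeq2, 3 with the batch alone and 0 to 2 with 1 library left out. For the batch difference 20 passed, against 1311 without the filter, 980 with DESeq2, 13 with limma voom and 0 to 1968 with 1 library left out, with 1 member without the filter and 0 to 1 with 1 library left out. Over both batches 0 passed, against 74 without the filter, 301 with DESeq2, 5 with limma voom and 0 to 164 with 1 library left out. For tumours minus cultures 522 passed, against 1410 with DESeq2 and 125 to 2194 with 1 library left out. A lone culture was assumed to vary like the other groups.

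With the replicate number as a block, 6 genes passed in tumours and 1 in batch 1, and 0 members passed in any comparison. The block took the adjusted p of Nfe2l2 in tumours to 0.155 and in batch 2 that of Psmb3 to 0.0634 and that of Pdia3 to 0.0582. The labels do not say that a number pairs samples. Deviations of same-numbered tumours from their group means correlated from -0.588 to 0.462 over the genes kept. That cannot decide if a number pairs samples. With the block, the SE in tumours went from 0.593 to 0.321 for Tap1 and from 0.457 to 0.218 for B2m. For Psme3 it went from 0.0867 to 0.109.

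With 1 library left out, the log2 fold changes in tumours ran from -0.22 to 0.93 for Psmb8, -0.18 to 0.96 for Psmb9, -0.29 to 0.58 for Psmb10, -0.23 to 0.23 for Psme1, -0.16 to 0.50 for Psme2, -0.107 to 0.0532 for Psmb5, -0.0876 to 0.0808 for Psmb6, -0.0697 to 0.118 for Pomp, -0.0534 to 0.705 for Tap1 and -0.0748 to 0.987 for Nlrc5. In batch 1 they ran from -0.85 to 0.45 for Psmb10, -0.46 to 0.10 for Psme2, -0.0606 to 0.637 for Psmb5, -0.0678 to 0.347 for Psmb6 and -0.0384 to 0.155 for Psmb7, and in batch 2 from -0.679 to 0.421 for Tap2. With both tumours at the ends of the leukocyte markers left out, chosen after seeing the data and bound to lower the members' values, they were -0.53 for Psmb8, -0.49 for Psmb9, -0.48 for Psmb10, -0.38 for Psme1, -0.35 for Psme2, -0.0651 for Psmb6, -0.0565 for Pomp, -0.342 for Tap1, -0.0519 for B2m, -0.145 for Irf1 and -0.357 for Nlrc5. With a pseudocount of 0.5, 1 of the 5 genes most like the members in cultures was kept. Depth limits Psmb8 and Psmb9 in cultures, at 0 to 11 counts a library.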
